A study of Mus musculus with 12 samples.

Results

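Polysomal RNA was compared between 4T1 cells that over-expressed METTL7A1 and mock cells, gene by gene. The comparison rests on 6 of the 12 libraries in the series, which are the 3 mock replicates A, B and C and the 3 METTL7A1 replicates D, E and F from gradient fractions 8 to 11. The other 6 libraries hold sub-polysomal RNA from fractions 3 to 7. 4T1 is a mouse mammary gland cancer line. Both groups carried a stably integrated vector, which was empty in mock cells and held full-length Mettl7a1 cDNA behind a CMV promoter in METTL7A1 cells. All 12 extracts came from cells given cycloheximide at 0.1 mg/ml for 5 min before lysis. Whether each transfected line was 1 clone or a mixed pool is not given in the sources used here, so a difference between the lines and an effect of METTL7A1 cannot be told apart. The study describes its fractionations of these lines as made on biological triplicates, and the labels themselves do not say which culture a letter stands for.

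An mRNA in translation carries several ribosomes at once, and such polysomes travel further into a sucrose gradient than free subunits and single ribosomes. Cycloheximide stalls elongating ribosomes and so keeps them on the message during lysis. RNA from the deep fractions therefore reports how much of a message was ribosome-loaded, which depends both on how much of the message the cell held and on how well it was loaded. METTL7A1 belongs to a small family of methyltransferase-like proteins, with METTL7B as its close relative, that sit on the endoplasmic reticulum (ER) membrane and on lipid droplets. Total RNA was not analysed here, so a change in message amount and a change in loading cannot be told apart from the polysomal values alone. As in any bulk extract, a change in every cell and a larger change in some cells cannot be told apart either.

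The 6 polysomal libraries held between 5358491 and 6966156 counts, and levels are given below as CPM, in which each library's counts are set to a common total after scaling with TMM factors. The first principal component of their log2 CPM took 56.7% of the variance and split the genotypes, while the second, with 19.3%, parted mock replicate A from mock replicates B and C. Mettl7a1 itself stood at 3.28, 3.02 and 2.85 CPM in mock cells and at 308, 313 and 273 CPM in METTL7A1 cells, a log2 difference of 6.60 ± 0.24 (SE, adjusted p = 5.44e-13). Of 10 markers of luminal mammary epithelium, Krt8, Krt18, Krt19, Krt7, Epcam, Cdh1, Cldn7 and Esr1 were above the filter, and the summed level lay between 3832 and 4527 CPM in mock cells and between 5810 and 6720 CPM in METTL7A1 cells. Of the 7 basal markers, Krt14 alone passed the filter, with a log2 difference of -0.36 (adjusted p = 0.0614), and Krt5, Myh11 and Oxtr were at 0. Of the 12 leukocyte markers, 8 were at 0 in all 6 libraries, among them Cd3e, Itgam and Adgre1. Of the 8 fibroblast markers 5 were at 0, and of the 6 endothelial markers 3 were at 0, with a sum of at most 0.959 CPM.

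Ribosome-loaded RNA differed between the lines in both directions. Of 12224 genes with enough counts to test, 120 were called higher in METTL7A1 cells, which is 0.982% of them, and 140 were called lower, which is 1.15%. Genes were called in edgeR's quasi-likelihood test when the adjusted p was under 0.01 and the log2 change exceeded 1.5 in size. At an adjusted p below 0.05 with no limit on the size, 1185 genes rose (9.69%) and 1012 fell (8.28%). These shares are the reference for the polysomal list counts below. In sub-polysomal RNA, 2058 of the 12224 genes rose and 1776 fell at an adjusted p below 0.05. With Actb scaling the 1185 and 1012 became 1234 and 495. The rises became 766 without mock replicate B, 779 without replicate D and 780 without replicate E, and the falls became 654, 582 and 592 there and 653 without replicate F. The 3 METTL7A1 values lay above all 3 mock values in 2315 genes (18.9%) and below them in 2165 genes (17.7%). The groups did not overlap in any of the 260 called genes, but these were called on the same values, so this is not separate support. The called higher genes took between 0.148% and 0.170% of the counts in the mock libraries and between 0.597% and 0.684% in the METTL7A1 libraries. The called lower genes fell from between 0.134% and 0.152% to between 0.0275% and 0.0287%. The median log2 change over all tested genes was -0.01. At the edge of the limit, Cavin2 was called higher with a log2 change of 1.504 and Slc7a11 lower with -1.516, while Mipol1 just missed with -1.499.

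**Figure D1:**
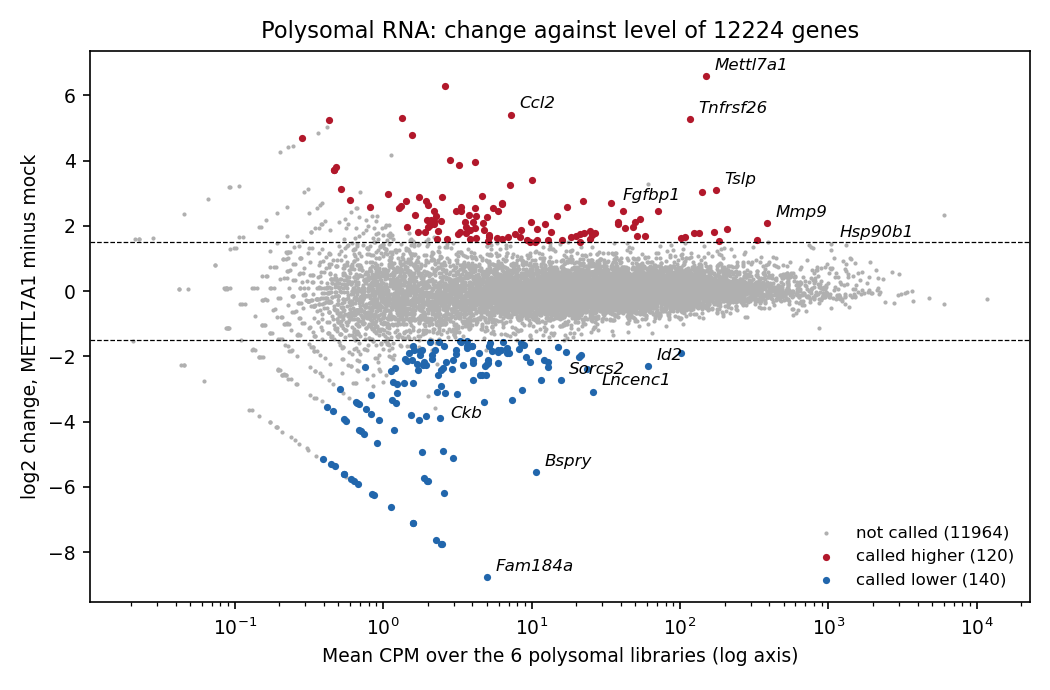
Each point is 1 of 12224 genes, with its mean level in CPM over the 6 polysomal libraries on a log axis against its log2 change, METTL7A1 minus mock. The dashed lines mark the limit of 1.5 either way. The called genes, 120 higher and 140 lower, reach up to Mmp9 at a mean of 387 CPM, and Mettl7a1 has the largest log2 change of the higher ones.

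Among called genes with a mean of at least 5 CPM, the largest rises after Mettl7a1 were in Ccl2 and Tnfrsf26. Tnfrsf26 is a member of the tumour necrosis factor receptor family. It stood at 4.51, 6.60 and 6.45 CPM in mock cells and at 246, 216 and 223 CPM in METTL7A1 cells. Its log2 rise was 5.28 ± 0.19 (adjusted p = 5.44e-13). Ccl2, the chemokine that draws monocytes, was close to absent in mock cells, with 0.137, 0.412 and 0.372 CPM, and reached 14.9, 13.5 and 13.98 CPM, a log2 rise of 5.41 ± 0.31. Both genes were low in every mock library and high in every METTL7A1 library, and their groups did not come near each other. Tslp, an epithelial cytokine that acts on dendritic cells, stood at 31.95, 42.2 and 36.0 CPM in mock cells and at 337, 282 and 319 CPM in METTL7A1 cells. Fgfbp1, a secreted carrier that frees fibroblast growth factors from the matrix, stood at 26.2, 26.9 and 37.5 CPM and at 268, 232 and 253 CPM. Both were readily detected in mock polysomes and higher in every METTL7A1 library, and Tslp and Fgfbp1 had log2 rises of 3.09 ± 0.16 and 3.05 ± 0.16.

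Several further rises concerned membrane and regulatory proteins. Pmp22, a tetraspan protein of myelin and epithelial junctions, rose by 3.40 ± 0.26 on the log2 scale, from a mean of 1.70 ± 0.50 (SD, n = 3) to 18.5 ± 3.4 CPM. Scn8a, a voltage-gated sodium channel, rose by 2.77, and its lowest METTL7A1 value of 36.1 CPM was far above its highest mock value of 6.58 CPM. Ctsw, a cathepsin best known from cytotoxic lymphocytes, rose by 2.70. Arhgdib, a GTPase regulator that is typical of blood cells, rose by 2.57, from 5.01 ± 0.58 to 29.9 ± 2.3 CPM. Rsad2, the antiviral enzyme viperin, rose by 2.69, and Inhbb, a subunit of activin and inhibin, by 2.66. The long non-coding transcript C130073F10Rik rose by 3.27, from a mean of 1.32 to 13.0 CPM. The leukocyte-typical Ctsw and Arhgdib rose although 8 of 12 leukocyte markers were at 0, and the summed leukocyte markers lay between 5.05 and 8.19 CPM in mock and between 14.8 and 23.7 CPM in METTL7A1 libraries. The lysosomal Cd68 was the one of these markers above the filter, and it rose from 6.54 ± 1.67 to 19.3 ± 4.6 CPM (log2 change 1.56, adjusted p = 0.00011), a call that was lost without mock replicate A or without replicate D or E. The part of these markers in the other rises was not tested.

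**Figure D2:**
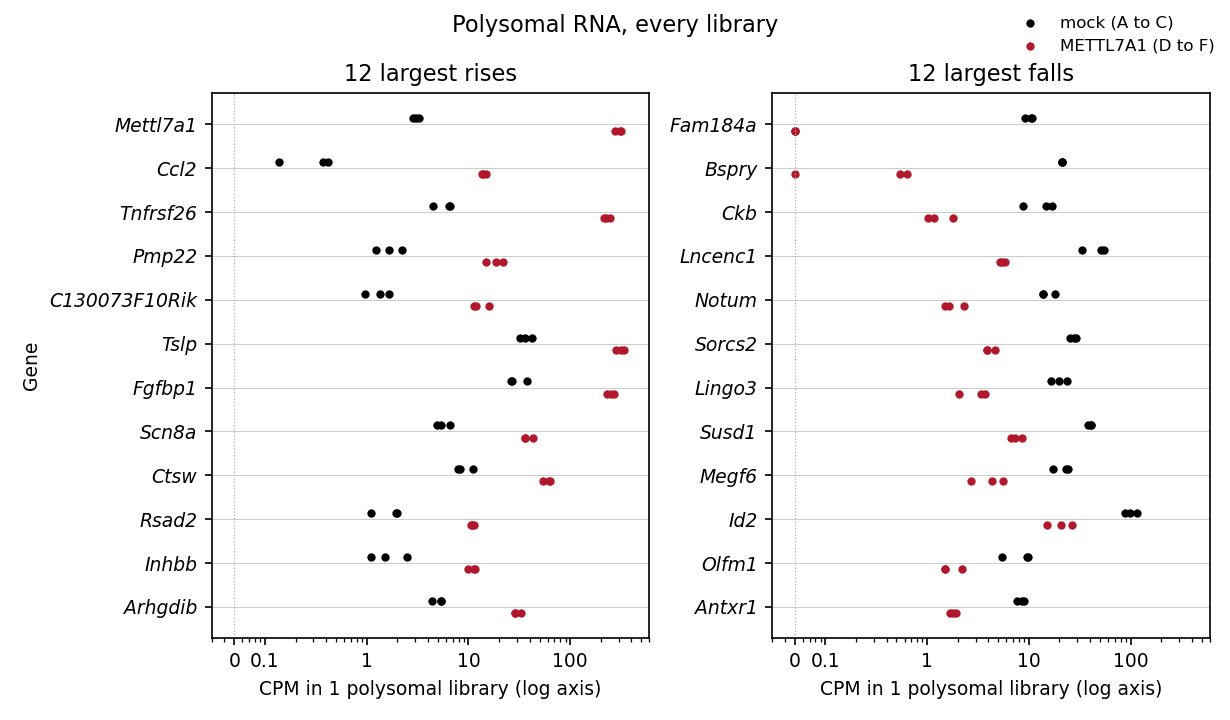
CPM of the 12 largest rises and 12 largest falls among called genes with a mean of at least 5 CPM, 1 point per polysomal library on a log axis, black for mock and red for METTL7A1. Values of 0 are drawn at the dotted line, where the 3 METTL7A1 points of Fam184a lie. In each of the 24 genes, all 3 points of 1 genotype lie on the same side of the other genotype's points, which follows largely from their choice by size of change.

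The largest falls included genes that were nearly or fully lost from METTL7A1 polysomes. Fam184a, which encodes a coiled-coil protein, stood at 10.7, 10.4 and 9.18 CPM in mock cells and had no count in any METTL7A1 library, so it was at least 70.7-fold lower when set against a floor of 3 counts over the METTL7A1 group. Bspry, a protein that binds 14-3-3 and is found in epithelia, stood at 21.0 CPM in each mock library and at 0.548, 0.642 and 0 CPM in METTL7A1 cells. Ckb, the brain-type creatine kinase, stood at 17.1, 8.80 and 14.8 CPM and at 1.78, 1.03 and 1.18 CPM, with a log2 change of -3.33 ± 0.30. All 3 genes were clearly loaded in mock cells, and mock replicate B was the lowest for Ckb. Notum, an enzyme that inactivates Wnt ligands, fell by 3.03 on the log2 scale, from 18.2, 13.9 and 13.9 CPM to 1.64, 2.31 and 1.52 CPM. Lncenc1, a long non-coding RNA known from embryonic stem cells, fell by 3.08, from 33.3, 54.7 and 51.3 CPM to between 5.21 and 5.78 CPM.

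The other large falls were smaller than these. Sorcs2 and Lingo3, both best known from neurons as a sorting receptor and as a leucine-rich repeat protein, fell by 2.73 and 2.72 on the log2 scale. Susd1 fell from 39.7 ± 1.4 to 7.52 ± 1.01 CPM and Megf6 from 21.6 ± 3.8 to 4.20 ± 1.42 CPM. Id2, an inhibitor of basic helix-loop-helix factors and a classic target of BMP signalling, was the most abundant of the 12 and stood at 88.6, 117 and 98.9 CPM in mock cells and at 15.2, 20.5 and 26.3 CPM in METTL7A1 cells. Olfm1, an olfactomedin, fell by 2.24, and Antxr1, a receptor of collagen and anthrax toxin, fell as well. Among the abundant called genes, Dap, a regulator of autophagy, fell from 84.4, 196 and 202 CPM to between 36.6 and 52.4 CPM, with mock replicate A the closest to the METTL7A1 values. Rnf157, a ubiquitin ligase, fell by 1.97.

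Zeros occurred among the called lower genes. In 17 of the 140, all 3 METTL7A1 libraries had no count, and 12 of these also had none in the 3 METTL7A1 sub-polysomal libraries, where the other 5 had at most 3 counts in all. All 17 had counts in mock sub-polysomal RNA. After Fam184a the most abundant of them in mock polysomes were Cplx2, Tmcc2 and Rnf113a2, at 5.00, 4.92 and 4.57 CPM, and they were at least 35.0-fold, 34.5-fold and 32.1-fold lower. Ldhb, the heart-type subunit of lactate dehydrogenase, stood at 3.41, 3.57 and 2.61 CPM in mock cells and at 0 in METTL7A1 cells, at least 22.4-fold lower. These genes were chosen for their zeros after their values were seen. They passed the filter through mock libraries alone, and the call itself required a large fall. How often zeros occurred is therefore no separate result, and the share of such genes over all tested genes was not counted. A further 24 called lower genes had between 1 and 3 METTL7A1 counts, such as Nkd2, with 90 counts in mock and 1 in METTL7A1 libraries, a ratio of 83.5 with a 95% counting interval from 14.6 to 3330. In the other direction, 2 called higher genes, the RNAs Gm23201 and E230032D23Rik, had no mock count, and 8 had 1 to 3.

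Neighbouring genes were sometimes called together. Grouping called genes of the same direction whose starts lay within 200 kb gave 13 runs with 28 genes, and the clearest were families of similar genes in a row. Other runs were pairs of unlike genes, such as Bst1 with Fgfbp1 and Pcolce with Zcwpw1. How often tested genes lie this close was not counted, so the runs are a description only. On chromosome 9 (GRCm38), the matrix metalloproteinases Mmp12 at 7344397 to 7369499, Mmp3 at 7445822 to 7455975 and Mmp10 at 7502352 to 7510240 lay on the plus strand and were all called higher. Their RefSeq promoters, 250 bases before to 50 bases after the start of the transcript (GRCm38.p6), are shown because the 3 genes moved together and each holds the AP-1 letters TGANTCA, read on both strands and set in capitals.
Mmp12, chr9:7347124-7347423, plus strand: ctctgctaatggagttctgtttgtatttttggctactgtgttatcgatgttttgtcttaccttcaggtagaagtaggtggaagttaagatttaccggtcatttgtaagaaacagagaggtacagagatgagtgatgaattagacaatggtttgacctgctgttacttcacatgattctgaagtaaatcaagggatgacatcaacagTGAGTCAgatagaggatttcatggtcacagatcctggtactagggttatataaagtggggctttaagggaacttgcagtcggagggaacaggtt
Mmp3, chr9:7445572-7445871, plus strand: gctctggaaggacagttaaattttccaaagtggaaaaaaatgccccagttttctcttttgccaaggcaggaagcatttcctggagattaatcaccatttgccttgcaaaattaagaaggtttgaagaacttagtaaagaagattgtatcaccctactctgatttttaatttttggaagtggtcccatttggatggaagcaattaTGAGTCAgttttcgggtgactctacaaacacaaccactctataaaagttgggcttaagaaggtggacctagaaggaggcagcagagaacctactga
Mmp10, chr9:7502092-7502391, plus strand: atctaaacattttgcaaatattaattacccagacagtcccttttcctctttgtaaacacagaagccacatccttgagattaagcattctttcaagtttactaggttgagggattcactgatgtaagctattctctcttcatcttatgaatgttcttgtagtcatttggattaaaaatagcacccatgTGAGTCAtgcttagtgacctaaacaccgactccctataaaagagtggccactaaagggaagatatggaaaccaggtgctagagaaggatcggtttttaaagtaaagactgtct
All 3 read TGAGTCA, and a second Mmp12 promoter in the table, at another start, holds none. The letters TGANTCA occur in 7.81% of all 32851 promoters of the table and in 4.67% of the 150 promoters of the called lower genes, of which 113 of 140 were matched. For the called higher genes only 78 of 120 had a promoter in the table, so a share over them is void. A match of letters is a description and not a bound site.

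Several matrix proteases rose. Of 30 tested genes for matrix proteases and their inhibitors, 7 were called higher and 1 lower, and at an adjusted p below 0.05, 13 rose and 2 fell (median log2 change 0.41). Mmp9, the gelatinase of type IV collagen, was the most abundant called gene, at 157, 109 and 175 CPM in mock cells and 698, 661 and 523 CPM in METTL7A1 cells (log2 change 2.09 ± 0.18, adjusted p = 2.12e-07). Mmp3, the stromelysin of chromosome 9, stood at 170, 145 and 184 CPM and at 589, 465 and 440 CPM, while its neighbour Mmp10 rose from a mean of 51.6 to 164 CPM. Mmp3 and Mmp10 rose by 1.58 ± 0.16 and 1.67 ± 0.15 on the log2 scale. Replicate D was the highest METTL7A1 library for Mmp3, whose call was lost without it or without mock replicate B. Mmp12, the macrophage elastase, was much rarer and rose from 0.928 ± 0.276 to 5.74 ± 0.94 CPM, and Mmp13, a collagenase at the same locus, rose by 1.29 without passing the limit for a call. Exons of Mmp12 share 157 bases with Mmp1b on the other strand, and whether counting used the strand is not stated. Adam8, a sheddase, rose by 1.95, and Plat, the tissue plasminogen activator, by 2.56. Plau, the urokinase, was already at 717 ± 67 CPM in mock cells and rose by 1.02 to 1452 ± 191 CPM. The falls were in protease inhibitors, Reck from 2.52 to 0.707 CPM and Timp2 from 747 to 495 CPM, and 1 of these falls was left without replicate E or with Actb scaling. The call of Reck was lost whenever any 1 polysomal library was left out, with adjusted p between 0.0173 and 0.0474 there and in DESeq2.

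Several claudins rose. Of 22 tested claudin and tight junction genes, 3 were called higher and 0 lower, and at an adjusted p below 0.05, 8 rose and 0 fell (median log2 change 0.40). Without replicate D the 8 became 5. Cldn3 stood at 73.9, 79.2 and 107 CPM in mock cells and at 302, 340 and 341 CPM in METTL7A1 cells (1.92 ± 0.23, adjusted p = 9.7e-06). Cldn4, the most abundant of those that rose, went from 407 ± 65 to 1076 ± 47 CPM, a log2 rise of 1.40 that stayed under the limit for a call. The rarer Cldn23 and Cldn6 rose by 1.89 and 2.17, and the call of Cldn6 was lost without mock replicate A or B or without replicate E or F. Of 14 integrins, 1 was called, Itgb2, the beta 2 chain of leukocyte integrins, at 67.6, 55.8 and 58.2 CPM in mock and 240, 212 and 174 CPM in METTL7A1 cells, and 4 rose and 0 fell at an adjusted p below 0.05. Without replicate D that count was 2. Of 33 extracellular matrix genes, 6 rose and 2 fell, with Lamb3 and Col7a1 of the epithelial basement membrane up by 1.20 and 1.17 and the rare Col6a1 down from 1.36 to 0.190 CPM. The 2 falls became 0 without replicate E or F and 1 without mock replicate A or with Actb scaling.

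Some epithelial genes rose and a few fell. Of 34 tested epithelial genes, 12 rose and 3 fell at an adjusted p below 0.05 (median log2 change 0.22). Without mock replicate B or without replicate D the 12 became 7, and without replicate E they became 5. The simple-epithelium keratins Krt8 and Krt18 rose from 706 ± 101 to 1245 ± 112 CPM and from 1045 ± 74 to 1594 ± 162 CPM. The membrane protease Prss8 rose by 1.25, and E-cadherin, Cdh1, rose by 0.49. The 3 falls were Bspry, Esrp1 and Cd24a, a surface glycoprotein that stood at 768, 1554 and 1257 CPM in mock and at 516, 501 and 605 CPM in METTL7A1 cells. Of the 8 tested luminal markers 5 rose, and Esr1, the oestrogen receptor, fell from 9.64 ± 2.67 to 3.20 ± 0.37 CPM, a call that was lost without mock replicate A or B and with scaling by Actb. The 5 became 3 without mock replicate B or replicate D and 2 without replicate E. Of 12 mesenchymal genes 2 rose and 1 fell, with Postn, a matricellular protein, called higher from 1.59 to 9.42 CPM and S100a4 down by 0.87. The rises became 1 without mock replicate A or B or without replicate F, and the fall became 0 without mock replicate B or C or without replicate D or E and 2 without replicate F.

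Inflammatory signals rose more often than they fell. Of 20 tested chemokine, interleukin and colony-stimulating factor genes, 2 were called higher and 0 lower, and 8 rose and 3 fell at an adjusted p below 0.05 (median log2 change 0.40), but without replicate F the 8 became 3. Il1a, an alarmin of epithelial cells, stood at 500, 452 and 407 CPM in mock and 1118, 1081 and 1194 CPM in METTL7A1 cells, a log2 rise of 1.32 ± 0.19. The neutrophil chemokine Cxcl5 was the most abundant of the genes that rose over the 6 libraries, and went from 677.5 ± 156.9 to 1115 ± 156 CPM. Ccl20, the ligand of CCR6, rose from 9.39 ± 2.25 to 30.4 ± 2.3 CPM. Cxcl3, another neutrophil chemokine, went the other way, from 14.1 ± 4.8 to 5.39 ± 0.73 CPM, and Il11 fell by 1.13. Outside that list, Il23a, a subunit of interleukin 23, was among the 5 most abundant called higher genes and stood at 83.0, 92.1 and 104 CPM in mock and 284, 262 and 270 CPM in METTL7A1 cells, a call that was lost without mock replicate A. Of 14 tumour necrosis factor receptors, 5 rose and 1 fell, with Tnfrsf26 the 1 call. Without mock replicate B the 5 became 1, without mock replicate C they became 3, and without any METTL7A1 library they became 2. The fall, Tnfrsf22, was kept without mock replicate A alone and became 0 without any other library or with Actb scaling. Gzme, a granzyme, rose from 0.468 ± 0.460 to 7.85 ± 0.91 CPM and was the 1 gene of its list with enough counts to test, beside its neighbour Mcpt8 on chromosome 14, which rose by 2.13. Of 7 clade B serpins, inhibitors of such proteases, 2 rose and Serpinb6b fell by 2.01.

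The machinery that loads peptides on MHC class I was higher by small steps. Of 19 tested genes, 15 rose and 0 fell at an adjusted p below 0.05, with a median log2 change of 0.66 and none past the limit for a call. H2-K1, a classical heavy chain, stood at 334, 308 and 427 CPM in mock and at 704, 623 and 551 CPM in METTL7A1 cells, and B2m, the shared light chain, rose from 602 ± 103 to 944 ± 143 CPM. The transporter subunit Tap1 rose by 0.80, and Nlrc5, the transactivator of these genes, by 1.42 from under 1 CPM. The 15 became 4 without mock replicate B, 5 without replicate D and 9 without replicate E. The heavy chains are near-identical copies, and reads may have been split between them. Of 38 interferon-stimulated genes, 7 rose and 1 fell, with Rsad2 and Usp18 up by 2.69 and 1.45 and Ifit2 down by 1.74.

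**Figure D3:**
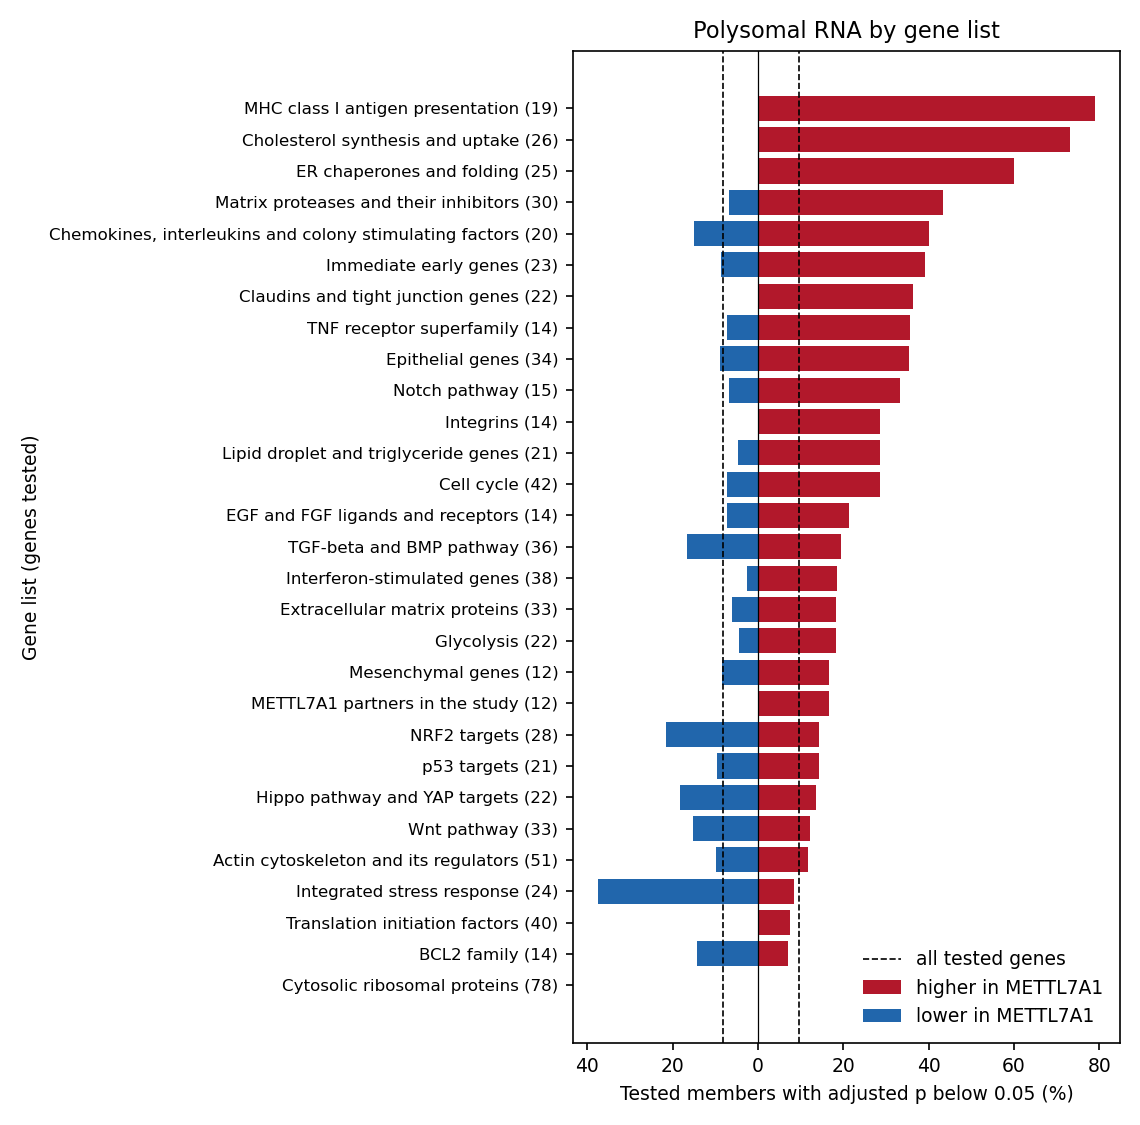
Share of the tested members of each gene list with at least 10 tested genes, in percent, with an adjusted p below 0.05, drawn to the right for genes higher and to the left for genes lower in METTL7A1 cells. Dashed lines give the same shares over all tested genes, 9.69% and 8.28%. MHC class I, cholesterol and ER chaperone genes have the longest bars to the right, the integrated stress response has the longest bar to the left, and the ribosomal proteins have none.

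Chaperones of the ER lumen were more abundant in METTL7A1 polysomes. Of 25 tested ER chaperone and folding genes, 15 rose and 0 fell at an adjusted p below 0.05, against 9.69% and 8.28% of all genes, and the median log2 change was 0.58. No member was called, since the largest change, of Hsp90b1, was 1.45. Hsp90b1, the ER form of HSP90, stood at 570, 489 and 619 CPM in mock and at 1844, 1386 and 1368 CPM in METTL7A1 cells. Hspa5, or BiP, the main HSP70 of the ER, stood at 1342, 1150 and 1500 CPM in mock and at 3044, 2256 and 2188 CPM in METTL7A1 cells. Replicate D was the highest for both. The lectin chaperone Calr rose from 1065 ± 133 to 1951 ± 273 CPM, and the disulphide isomerase Pdia3 from 964 ± 98 to 1898 ± 311 CPM. The stress factor Xbp1 rose by 0.71 and the co-chaperone Sdf2l1 by 1.19. Summed over the list, the libraries held 8905, 7896 and 9332 CPM in mock and 17280, 14060 and 13340 CPM in METTL7A1 cells. Leaving out 1 library gave between 11 and 16 members that rose and 0 that fell. In sub-polysomal RNA the same 25 genes had a median log2 change of 0.21, and 8 rose and 2 fell there. Of all 12224 tested genes, 2058 rose and 1776 fell in that pool.

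Cholesterol synthesis genes were higher in small steps. Of 26 tested genes, 19 rose and 0 fell at an adjusted p below 0.05, with a median log2 change of 0.60 and no call. The enzymes Cyp51 and Sqle, which act on lanosterol and squalene, led the list. Cyp51 stood at 129, 120 and 134 CPM in mock and at 353, 290 and 291 CPM in METTL7A1 cells (1.29 ± 0.15, adjusted p = 6.86e-06), and Sqle at 107, 100.5 and 111 CPM and at 278, 236 and 228 CPM (1.22 ± 0.13). The master regulator Srebf2 rose by 0.89 and the synthase Hmgcs1 by 0.51. Without mock replicate B the count became 12, and without any other library it lay between 14 and 17. In sub-polysomal RNA, 13 rose and 0 fell, with a median of 0.49, while 2058 of all 12224 tested genes rose and 1776 fell. Of 21 lipid droplet and triglyceride genes, 6 rose and 1 fell. Plin2, a droplet coat protein, rose from 101 ± 8 to 176 ± 17 CPM, and Fitm2 and Dgat1, both needed to form droplets, rose by 1.02 and 0.98. Bscl2, which encodes seipin, fell from 10.6 ± 1.8 to 4.78 ± 1.40 CPM.

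The integrated stress response, in which phosphorylation of eIF2 favours translation of ATF4, held more falls than rises. Of 24 tested genes, 3 were called lower and 0 higher, and 9 fell and 2 rose at an adjusted p below 0.05 (median log2 change -0.20). Chac1, an enzyme that breaks down glutathione, stood at 23.9, 30.8 and 25.9 CPM in mock and between 6.93 and 7.92 CPM in METTL7A1 cells (log2 change -1.86 ± 0.17, adjusted p = 3.31e-07). Trib3, a pseudokinase, fell from 27.5 ± 4.1 to 10.4 ± 0.5 CPM, and Gpt2, an alanine aminotransferase, from 25.6 ± 4.3 to 9.34 ± 0.95 CPM. Vldlr fell from 3.66 to 0.233 CPM. Psat1, of serine synthesis, fell by 0.52, while Shmt2 and Ppp1r15a, a phosphatase subunit of this pathway, rose by 0.58 and 0.66. Leaving out 1 library gave between 6 and 10 falls. The 2 rises became 0 without replicate E and 1 without mock replicate A or B or without replicate F. The call of the cystine transporter Slc7a11 was the weakest, at 8.19, 5.09 and 3.10 CPM in mock and 2.33, 2.18 and 1.01 CPM in METTL7A1 cells, and it was lost without mock replicate A or B, without any METTL7A1 library, and in the fit of the 6 polysomal libraries alone (adjusted p = 0.0165).

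Other stress and growth lists moved both ways, and over all tested genes 9.69% rose and 8.28% fell. The p53 and BCL2 lists, with few genes each, lay near these shares. Of 28 NRF2 target genes, 4 rose and 6 fell, and each METTL7A1 library left out took the 6 to 3, as did scaling by Actb. Gstm2, a glutathione transferase, fell by 1.89 and was called, while Osgin1 rose from 53.8 ± 6.6 to 117 ± 12 CPM. Of 23 immediate early genes, 9 rose and 2 fell (median 0.49). Dusp1, a MAP kinase phosphatase, stood at 14.5, 19.2 and 19.1 CPM in mock and at 69.6, 60.1 and 72.6 CPM in METTL7A1 cells, and Atf3, Egr1 and Jun rose by 1.17, 1.00 and 0.78, whereas Egr3 fell by 2.18, a call that was lost without mock replicate B or without replicate D or E. The 2 falls of the immediate early list became 1 without mock replicate B, without any METTL7A1 library or with Actb scaling. Of 21 p53 targets, 3 rose and 2 fell, and of 14 BCL2 family genes, 1 rose and 2 fell. Btg2, an antiproliferative p53 target, rose by 1.12, Bak1 by 0.81, and Sesn1 fell by 0.85. The p53 falls became 0 without replicate D or E or with Actb scaling and 1 without mock replicate C or replicate F. The BCL2 falls became 0 without mock replicate A or B, without replicate D or E or with Actb scaling and 1 without replicate F, and the BCL2 rise became 0 without replicate E. Of 42 cell cycle genes, 12 rose and 3 fell. Those that rose included the mitotic Ccnb1, Cdc20 and Cdc25b, by 0.87, 0.86 and 0.96, and Ccnd2, a cyclin of the first growth phase, fell from 87.7 ± 15.7 to 46.7 ± 3.1 CPM. The 3 cell cycle falls became 1 without replicate D or with Actb scaling. Of 22 glycolysis genes, 4 rose and 1 fell. Slc2a1, the glucose transporter GLUT1, rose from 115 ± 12 to 254 ± 19 CPM, and Ldhb was at 0 in all METTL7A1 libraries. The 4 rises became 2 without mock replicate B or C or without replicate D or E.

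**Figure D4:**
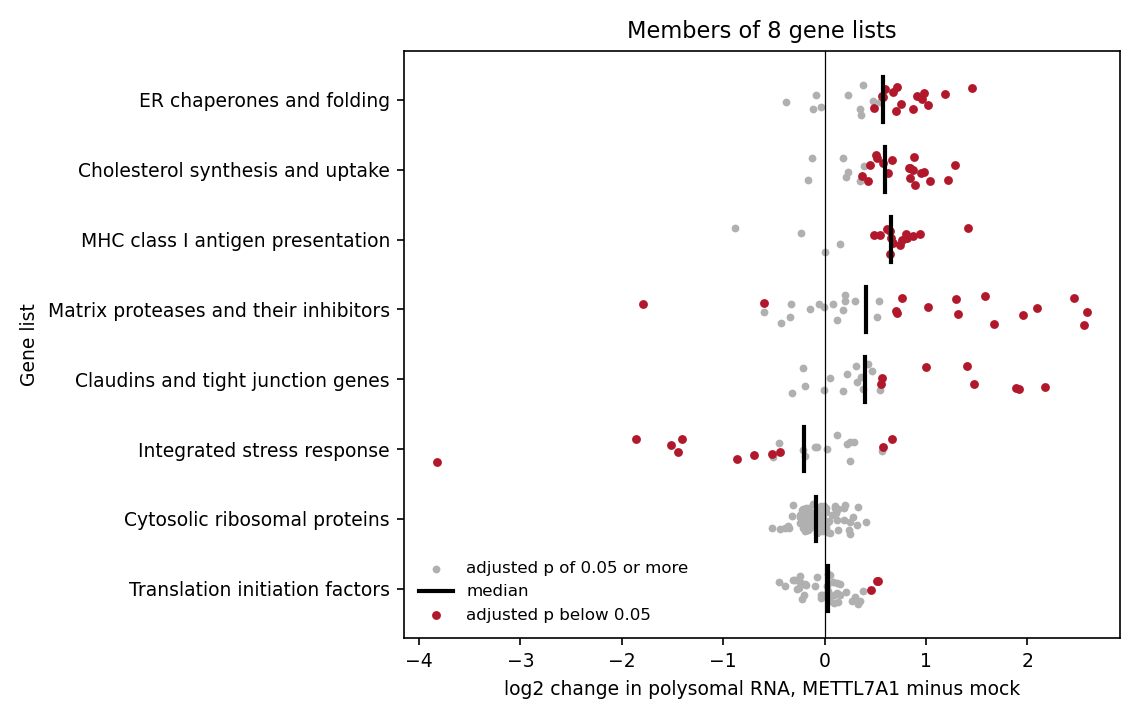
Each point is 1 tested gene of 8 lists, with its log2 change in polysomal RNA, METTL7A1 minus mock, red where the adjusted p was below 0.05 and grey elsewhere, and a black bar at each list's median. The points of the ER chaperone and cholesterol lists sit mostly to the right of 0 with medians of 0.58 and 0.60, those of the integrated stress response reach to -3.82 for Vldlr, and the ribosomal proteins crowd around -0.08 with no red point.

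In the developmental pathways some genes rose and others fell, while over all tested genes 9.69% rose and 8.28% fell. In the Wnt pathway, 33 genes were tested, 2 were called higher and 2 lower, and 4 rose and 5 fell at an adjusted p below 0.05. The secreted or cytoplasmic antagonists Notum, Nkd2 and Sfrp1 fell, Sfrp1 from 24.4 ± 2.0 to 8.67 ± 1.01 CPM. The ligand Wnt10b rose from 0.490 ± 0.425 to 3.39 ± 0.49 CPM, and the receptor-degrading ligase Rnf43 from 1.31 ± 0.55 to 4.06 ± 0.60 CPM, a call that was lost without mock replicate B or without any METTL7A1 library. The 5 Wnt falls became 3 without mock replicate B or replicate D. Of 36 TGF-beta and BMP genes, 7 rose and 6 fell (median 0.01). Bmp7, a ligand, stood at 10.5, 13.1 and 14.02 CPM in mock and at 69.0, 69.2 and 70.4 CPM in METTL7A1 cells (2.47 ± 0.17, adjusted p = 9.68e-09), and the targets Id2 and Id3 fell by 2.30 and 0.70. Tgfbr3, a co-receptor, fell from 2.54 to 0.581 CPM, a call that was lost without mock replicate B or without replicate E. Of 15 Notch genes, 5 rose and 1 fell, with the receptor Notch1 and the ligand Jag2 up by 1.12 and 1.02. The Notch fall became 0 without mock replicate B, without replicate D or with Actb scaling. Of 22 Hippo pathway genes, 3 rose and 4 fell, with the scaffold Sav1 down by 0.72 and the cofactor Vgll3 up by 0.70. The 4 falls became 1 without replicate E or with Actb scaling and 2 without mock replicate B or replicate D. Of 14 EGF and FGF genes, 3 rose and 1 fell, and the EGF-family ligand Hbegf rose from 386 ± 20 to 712 ± 72 CPM. The fall became 0 without mock replicate B, without replicate D or F or with Actb scaling and 2 without mock replicate C. Of 51 genes of the actin cytoskeleton and its regulators, 6 rose and 5 fell, near the shares over all tested genes. Lcp1, the bundling protein of leukocytes and many carcinomas, stood at 25.1, 22.4 and 18.5 CPM in mock and at 121, 128 and 112 CPM in METTL7A1 cells, and Chn2, a GTPase-activating protein for Rac, fell from 8.79 ± 0.26 to 0.798 ± 0.114 CPM. The 5 falls became 3 without replicate D or E and 2 without replicate F or with Actb scaling. Of 9 tested imprinted genes, 0 rose and 3 fell, with Mest called lower from 15.8, 19.8 and 23.5 CPM to 4.11, 4.75 and 4.88 CPM and Plagl1 at 0 in all METTL7A1 libraries. Exons of Mest share 2730 bases with Copg2 on the other strand.

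Ribosomal protein messages passed the test less often than all tested genes, of which 9.69% rose and 8.28% fell. Of 78 cytosolic ribosomal protein genes, 0 rose and 0 fell at an adjusted p below 0.05 in edgeR, and the extremes were -0.52 for Rpl37 and 0.40. DESeq2 put 3 of them lower, and the fit of the 6 polysomal libraries alone put 2 lower. Their summed level lay between 56330 and 73180 CPM in mock and between 59210 and 64120 CPM in METTL7A1 libraries. Of 40 initiation factors, 3 rose, near the share of all tested genes that rose, and 0 fell. The 3 were Eif6, Eif3d and Eif4b, up by 0.52, 0.52 and 0.46. Without mock replicate B or without replicate E the count of rises was 0, and without replicate D it was 1. Of 12 partners of METTL7A1 named in the study, Hspa5 and Eif4b rose and none fell, and 1 rise was left without mock replicate B or C or without replicate E. Of the 9 mRNAs that the study followed on gradients, a list that is not independent evidence of its direction, Cldn3 and Itgb2 were called higher, Pawr rose by 0.41, and Yap1, Ddx5, Khsrp, Eif4a2, Eif4g1 and Pabpc1 had log2 changes between -0.25 and 0.27 with adjusted p of at least 0.183. The study used another measure, qRT-PCR of fractions set against total mRNA, with protein blots. In sub-polysomal RNA, 2 of the 9 rose and 4 fell at an adjusted p below 0.05. Of all 12224 tested genes, 2058 rose and 1776 fell there. Itgb2, Ddx5 and Eif4a2 had log2 differences between the pools of 0.68, 0.73 and 0.44, with an unadjusted edgeR p below 0.05. None of the 9 passed after adjustment, and Cldn3 had -0.03. The control mRNAs Actb and Mmp14 had log2 changes of -0.10 ± 0.16 and -0.34 ± 0.19 (adjusted p = 0.722 and 0.248). In the family of METTL7A1 itself, the relative Mettl7b rose from 9.70, 17.9 and 17.1 CPM to 55.6, 63.4 and 66.9 CPM (log2 change 2.05 ± 0.19).

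Most called genes had changed in the same direction in sub-polysomal RNA. Of the 260, 167 were also called there in the same direction and 0 in the opposite one. An adjusted p below 0.05 in the same direction was found in 224, and 257 had the same sign. Of all 12224 tested genes, 2058 rose and 1776 fell at an adjusted p below 0.05 in sub-polysomal RNA. How many of all tested genes had the same sign in both pools was not counted. A test of the difference between the pools called 0 of 12224 genes in edgeR, with 0 at an adjusted p below 0.05 and 1911 at an unadjusted p below 0.05, of which 30 were called genes. DESeq2 called 1 gene and put 329 at an adjusted p below 0.05, and limma-voom put 0 there. Chosen after their values were seen, Mmp3 rose by 1.58 in polysomal and by 0.72 in sub-polysomal RNA (unadjusted p of the difference 0.0013), Hspa5 by 0.91 against 0.03 (unadjusted p = 0.00309) and Itgb2 by 1.79 against 1.10 (unadjusted p = 0.00996). Reck fell in polysomal RNA and had a log2 change of 0.22 in sub-polysomal RNA.

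**Figure D5:**
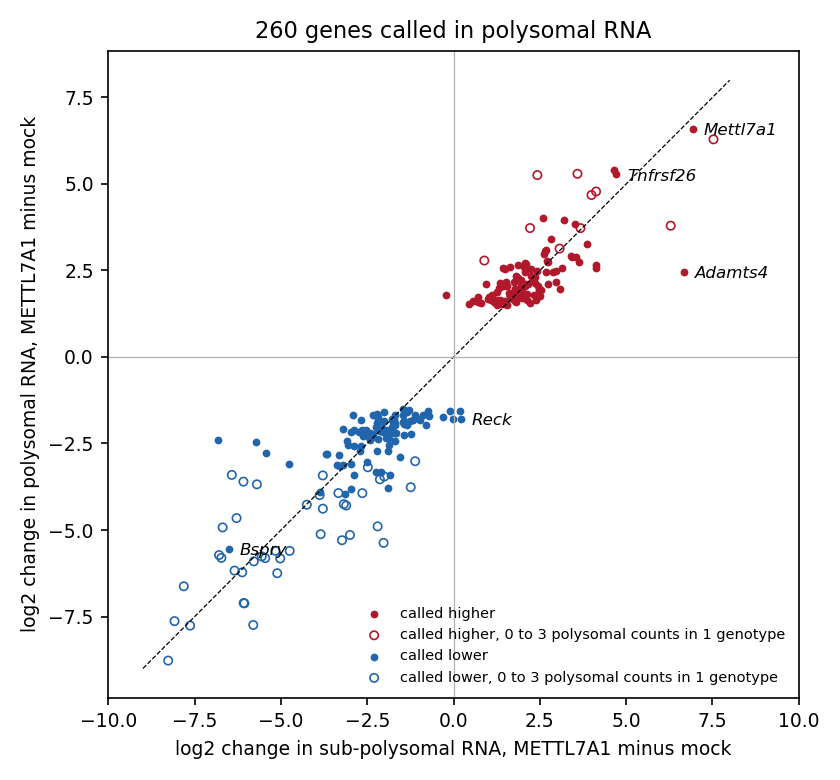
Log2 change of the 260 called genes in sub-polysomal RNA (x axis) against polysomal RNA (y axis), METTL7A1 minus mock, with the line of equal change dashed. Open circles are genes with 0 to 3 polysomal counts in 1 genotype, whose fitted values are not precise. Points fill the upper right and lower left of the plot, and 3 of the 260, Reck among them, have opposite signs in the pools.

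Length, base composition and position were not used to call the genes. Median exonic length was 2356 bases in the 120 higher genes, 3643 bases in the 140 lower genes and 3090 bases in all tested genes. Median GC content of the longest transcript was 51.0% and 51.8%, against 49.7% in all genes. Of the higher genes 109 were protein coding and 4 long non-coding, and of the lower genes 133 and 6. Levels, unlike these traits, did enter the call, so the medians of level given next follow in part from it. The higher genes were rare in mock polysomes, with a median of 1.75 CPM against 22.1 CPM over all genes, and reached a median of 8.23 CPM in METTL7A1 cells. The lower genes went from a median of 4.21 to 0.691 CPM. By chromosome, the share called higher ran from 0.218% on chromosome 13 to 1.66% on chromosome 15, and the share called lower from 0% on chromosome 18 to 2.83% on chromosome 13. Of the 260 called genes, 22 share exonic bases with another tested gene, among them Tnfrsf26, which shares 107 bases with E230032D23Rik on the other strand.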

How the data were processed

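Gradient fractions were pooled by the authors into polysomal and sub-polysomal RNA, depleted of ribosomal RNA and sequenced in pairs. Per the submitters' processing notes and the study's methods, reads were made with bcl2fastq 2.20.0.422, trimmed with BBDuk, aligned with STAR 2.5.3a to GRCm38 and counted with featureCounts. The deposited values are raw counts per gene, and whether counting used the strand is not stated. Genes that reached 1 CPM in 3 or more of the 12 libraries were tested with edgeR 4.0.16 (TMM factors, quasi-likelihood test, 1 mean per group over all 12 libraries, Benjamini-Hochberg adjustment), and SE is the log2 change over the root of F. CPM values were computed from the counts. Before TMM scaling, totals of 5358491 to 6966156 counts put 3 counts at 0.431 to 0.560 CPM. The printed levels are scaled and lie lower, such as 0.412 and 0.372 CPM for 3 counts of Ccl2 in mock replicates B and C. Intervals cover counting error only. Named genes were Mettl7a1, the 12 largest rises and falls among calls with a mean of at least 5 CPM, the 5 most abundant calls each way, up to 4 called members of each list and direction (without a call, the 2 largest changes at 5 CPM or more), the mRNAs of the study and the markers. Further list members were named after their values were seen. The members and lists were chosen with earlier results of these data known. Alternatives were other factors, DESeq2 1.42.0, limma-voom 3.58.1, other filters, Actb scaling, the 6 polysomal libraries alone and each replicate left out. The main fit did not pair the pools of 1 letter. The correlations of their deviations from the group means lay between -0.275 and 0.143. Such values cannot show whether the pools of a letter came from 1 culture. A few list members are not reported here.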

Additional observations from a re-analysis of the deposited data

How the results depend on the processing

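The 260 calls of the polysomal comparison, 120 higher and 140 lower, became 261 with RLE factors, 240 in DESeq2, 266 in limma-voom, 244 from the 6 polysomal libraries alone, 254 with Actb scaling (134 higher and 120 lower, so that the share of higher calls moved from 46.2% to 52.8%) and 330 with every gene of at least 1 count. With at least 10 counts in each library, 8855 genes were tested and 55 were called, 35 higher and 20 lower, of which 54 were among the 260. With no limit on size and adjusted p below 0.05, 2197 passed, 1185 higher and 1012 lower. Leaving out 1 polysomal replicate at a time gave 206 to 244 calls, 100 to 124 higher and 96 to 137 lower. With the letter as a random replicate block the pairing gave 265 calls, 129 higher and 136 lower, at a consensus correlation of 0.0291. For the difference between the pools, edgeR called 0, DESeq2 1 and the test of every gene with at least 1 count 10, and the fit of 6 libraries could not give a value. Of 61 called genes named, 50 kept their call in every alternative that tested them. Reversed signs were seen in genes that were not called. With Actb scaling, Ddx5 was at 0.001608, and Eif4a2 was at -0.003174 with at least 10 counts. Actb scaling fixes the change of Actb itself, so its value of 1.281e-15 there is rounding error and not a result. With 1 replicate left out, Ddx5 ran from -0.2517 to 0.09005, Eif4a2 from -0.04952 to 0.06206 and Pdgfra from -0.4403 to 0.05399, with the sign turned without mock replicate A. Genes at a few counts are limited by depth. The causes were not tested.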
